A study of Sordaria macrospora with 8 samples.

Results

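Among the regions acetylated at lysine 56 of histone H3 (H3K56ac) in the filamentous fungus Sordaria macrospora, 572 were broad and kept 1 counterpart in a strain without the histone chaperone ASF1. Each is a pair of 1 peak from the Δasf1 list and 1 peak from the wild-type list that overlap no other peak of the other list by 1 bp or more. The overlap had to cover at least 50% of each peak, and both peaks had to be 3000 bp or wider. Starts above position 6300000 of chromosome 2, where the rRNA gene repeats lie, were left out. The full lists held 7117 peaks in Δasf1 and 7430 peaks in the wild type, of which 1551 in Δasf1 and 1805 in the wild type were at least 3000 bp wide. Widths, overlap and hence the range of possible edge shifts were used to choose these domains, and values of both lists are given as a description without a test. The domains were thus selected on the listed positions of both strains.

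The series consists of chromatin immunoprecipitation followed by sequencing (ChIP-seq) from mycelium, with 2 immunoprecipitated and 2 input samples for Δasf1 and the same number for the wild type. Δasf1 carries a deletion of the asf1 gene and was grown for 3 days, whereas the wild type was grown for 2 days, since the mutant grows more slowly. The mutant stops its sexual development at young stages of the fruiting body. Both were kept at 27°C in liquid complete medium under constant light, treated with 1% formaldehyde (15 min), and their chromatin was cut by micrococcal nuclease. Genotype and days of growth therefore cannot be told apart. Δasf1 strains also carry a second copy of parts of chromosome 2, and this difference cannot be told apart from the deletion either.

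Lysine 56 lies in the globular core of histone H3, at the point where DNA enters and leaves the nucleosome. In budding yeast, ASF1 presents newly made H3-H4 to the acetyltransferase Rtt109, which acetylates this residue before the histones are placed on DNA, and the mark is removed after replication. Acetylated H3 therefore marks nucleosomes that have been newly assembled during replication or exchanged outside it. In S. macrospora, ASF1 is needed for the formation of fruiting bodies, and the mutant is sterile.

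Each peak list gives, for every peak, a start, an end, a fold enrichment and a q-value. The fold enrichment is the ratio of the immunoprecipitated signal to the local background, averaged over the peak. The q-value is the peak caller's p-value adjusted for the number of positions tested and is listed as −log10 q, so that a larger value means a signal less likely under the background model. Fold enrichments were low throughout, from 1.13 to 1.60 in Δasf1 and from 1.16 to 1.58 in the wild type. Peaks covered 37.7% of the genome in Δasf1 and 42.2% in the wild type. The lists hold 1 value per peak and strain and no value per replicate, so the spread between replicates and the read depth are unknown, and no interval can be given for a width, an edge or a fold. Neighbouring peaks of a list were at least 1066 bp apart in Δasf1 and 1084 bp apart in the wild type.

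The kept domains represent a minority of the broad peaks. Outside the rRNA repeats, 572 of 1544 broad Δasf1 peaks (37.0%) and 572 of 1802 broad wild-type peaks (31.7%) had a counterpart that fulfilled the rule. The remaining broad Δasf1 peaks were 510 that met several wild-type peaks, 190 whose wild-type partner met further Δasf1 peaks, 129 with a partner narrower than 3000 bp, 127 with an overlap below 50% of a peak, and 16 that met no wild-type peak. For the remaining broad wild-type peaks the same classes held 609, 185, 185, 230 and 21 peaks. Complete absence from the other list was the rarest class of broad peak in both strains. A wide peak meets the other list by 1 bp of overlap, and the lists cover 37.7% (Δasf1) and 42.2% (wild type) of the genome. Width and cover alone thus favour a small class without a counterpart. Among all 3021 pairs of 1 peak each with an overlap of at least 50%, both peaks reached 3000 bp in 18.9%, both were narrower in 2135 pairs (called narrow pairs here), and 314 pairs had a peak on either side of the limit.

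The limit of 3000 bp cuts through a continuous range of widths. Just inside it were a domain on chromosome 4 (chr4:2690881-2693883 in Δasf1 and chr4:2690391-2693840 in the wild type), with 3003 bp in Δasf1 against 3450 bp in the wild type, and a domain on chromosome 2 (chr2:4439217-4442224 and chr2:4437590-4441027), with 3008 bp in Δasf1 against 3438 bp in the wild type. Just outside it were a pair on chromosome 7 (chr7:2178789-2181778 and chr7:2178697-2181703), with 2990 bp in Δasf1 against 3007 bp in the wild type, and a pair on chromosome 3, with 5786 bp in Δasf1 against 2998 bp in the wild type. All positions refer to the S. macrospora assembly v04 of strain SN1693, and where 2 intervals are given the Δasf1 interval stands first.

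The median width of the domains was similar in the strains, as the rule, which asked for a large overlap and the same least width, would favour, while single domains varied. Their width ranged from 3003 to 11417 bp with a median of 4386 bp in Δasf1, and from 3017 to 11335 bp with a median of 4472.5 bp in the wild type. The middle 50% of the domains lay between 3574 and 5551 bp in Δasf1 and between 3708 and 5616 bp in the wild type. The median change of width, Δasf1 minus wild type, was -43.5 bp, and the median log2 width ratio was -0.014. Domains were wider in Δasf1 in 242 cases (42.3%, against 45.7% of all pairs with an overlap of at least 50%) and narrower in 328 cases (57.3%, against 54.1% of those pairs). The remaining 2 domains had the same width in both strains. Width changed by at most 10% of the wild-type width in 284 domains (49.7%, against 39.6% of those pairs) and by more in the others. Larger changes went both ways, as 63 domains were wider by more than 1000 bp in Δasf1 (11.0%, against 5.73% of those pairs) and 78 were narrower by more than 1000 bp (13.6%, against 8.21%). Since a shift of a given number of base pairs is a smaller part of a wide peak, and narrow peaks cannot move as far and still overlap by 50%, these shares cannot be set directly against those of narrow pairs.

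**Figure D1:**
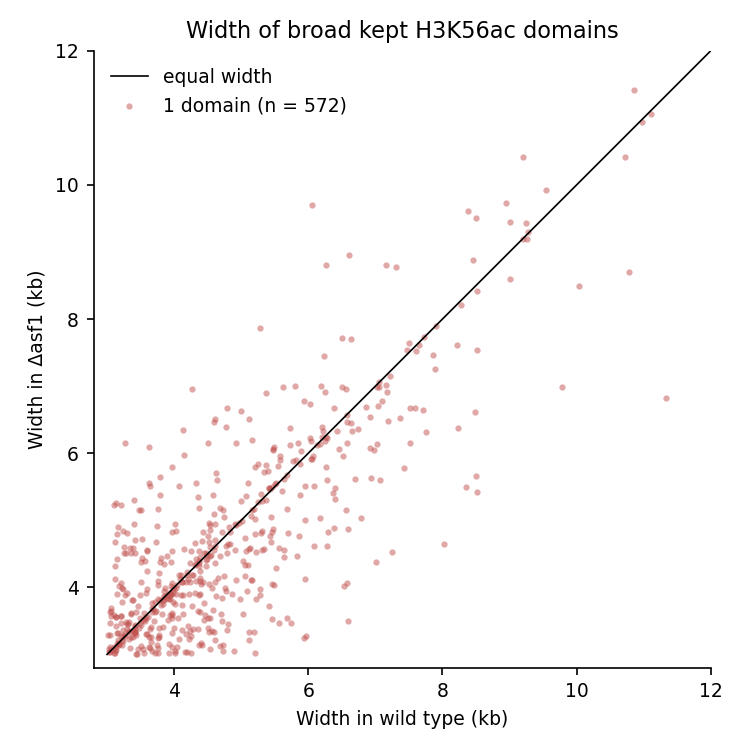
Width in kb of each of the 572 broad kept domains in Δasf1 (vertical axis) and in the wild type (horizontal axis), with 1 point per domain and the line of equal width. Most points lie along the line, with 242 above it, 328 below it and 2 on it, and no point lies below 3 kb on either axis because of the rule.

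Ranked by the smaller of its 2 widths, the widest domain lay on chromosome 1, at chr1:5433008-5444070 in Δasf1 and chr1:5432998-5444102 in the wild type. It measured 11063 bp in Δasf1 against 11105 bp in the wild type, and its edges differed by 10 and 32 bp. It overlapped 5 protein-coding genes, SMAC4_01583, SMAC4_01582, SMAC4_01581, SMAC4_01580 and SMAC4_01578, of which the middle ones were wholly covered. The next widest, on chromosome 4 (chr4:4031795-4042735 and chr4:4031774-4042749), measured 10941 bp in Δasf1 against 10976 bp in the wild type, with edges 21 and 14 bp apart, and overlapped 4 genes, SMAC4_09424, SMAC4_13668, SMAC4_13670 and SMAC4_09800. A domain on chromosome 1 (chr1:8098374-8109790 and chr1:8098955-8109812) was the widest in Δasf1 alone, with 11417 bp, and began 581 bp further out in Δasf1 and ended 22 bp further in. These domains are as wide as several genes in a row, and each of them was bounded at nearly the same base in Δasf1 as in the wild type on at least 1 side.

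The other very wide domains were on chromosomes 3, 7, 2, 4 and 1. The domain on chromosome 3 (chr3:5030083-5040495 and chr3:5029755-5040469) was 10413 bp wide in Δasf1 against 10715 bp in the wild type and covered most of SMAC4_08399 and SMAC4_08401. On chromosome 7 (chr7:1013415-1023344 and chr7:1013597-1023135) the Δasf1 peak spanned 9930 bp and the wild-type peak 9539 bp. On chromosome 2 (chr2:4976889-4986190 and chr2:4976772-4986050) the Δasf1 peak spanned 9302 bp and the wild-type peak 9279 bp, across 5 genes from SMAC4_03235 to SMAC4_03239. The domain chr4:979000-988426 in Δasf1 (chr4:979095-988345 in the wild type) had 98.7% of its shared bases inside the 3 genes SMAC4_06691, SMAC4_06692 and SMAC4_06693. The last of this group, chr1:6199068-6209484 in Δasf1 and chr1:6200270-6209475 in the wild type, was 1211 bp wider in Δasf1, nearly all of it at its left edge. The gene annotation used here gives locus tags without products for these genes, so no function is stated for them.

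Many edges lay at nearly the same position in both strains. The left edge, at the lower coordinate, lay within 50 bp of its wild-type position in 185 domains (32.3%, against 42.7% of all pairs with an overlap of at least 50%), and the right edge in 203 domains (35.5%, against 44.3%). Both edges lay within 50 bp in 62 domains (10.8%, against 18.8%) and within 100 bp in 140 domains (24.5%, against 33.4%). At least 1 edge lay within 50 bp in 326 domains (57.0%, against 68.2%). Of the 1144 edges, 22 fell on the same base, 366 had moved by 1 to 50 bp, 233 by 51 to 200 bp and 340 by more than 200 and up to 1000 bp. Of the rest, 82 had moved outward and 101 inward by more than 1000 bp in Δasf1. The median absolute shift was 124.5 bp in the broad domains and 53 bp in the narrow pairs.

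Shifts went both ways, with inward shifts in Δasf1 somewhat more frequent than outward ones. This held in each size class, with 189 against 177 edges at 1 to 50 bp and 101 against 82 above 1000 bp. Counted as positive outward and negative inward in Δasf1, the median shift was -10.5 bp at the left edge and -1.5 bp at the right edge, both far below the widths of the domains. Both edges had moved outward in 107 domains (18.7%, against 22.1% of all pairs with an overlap of at least 50%) and inward in 146 domains (25.5%, against 24.7%). Both had moved to the left in 134 domains (23.4%, against 23.4%) and to the right in 163 (28.5%, against 25.5%). In the remaining 22 domains an edge had stayed at the same base.

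**Figure D2:**
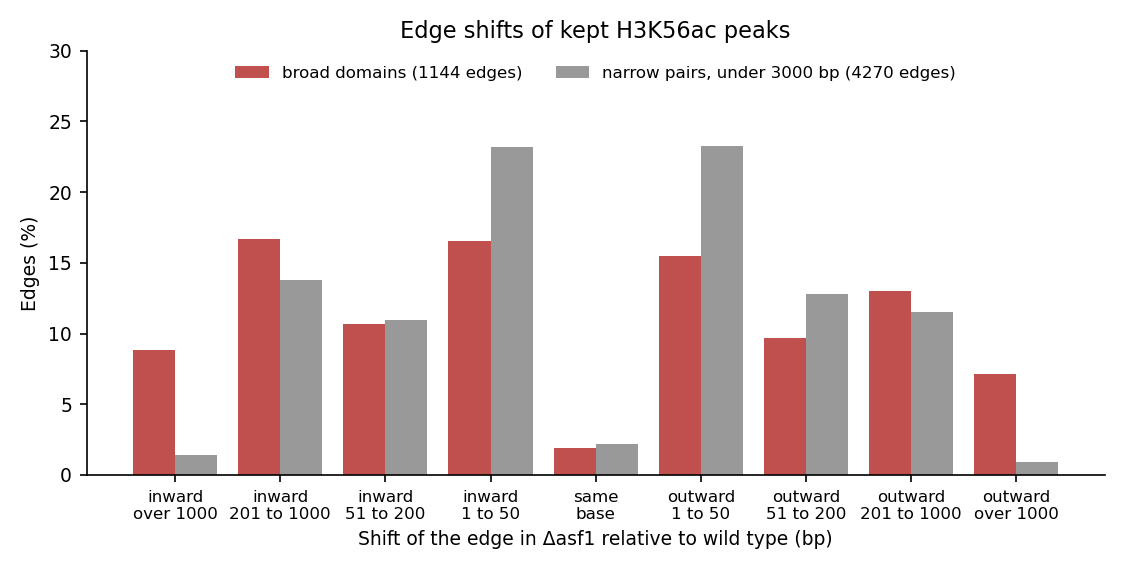
Share of edges in percent (vertical axis) by the shift of the edge in Δasf1 relative to the wild type in bp (horizontal axis), for the 1144 edges of the broad domains and the 4270 edges of the narrow pairs. Shifts of more than 1000 bp made up 8.83% inward and 7.17% outward of the edges of broad domains, against 1.38% inward and 0.937% outward of the edges of narrow pairs, in which such shifts are limited by the width of the peaks.

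Large shifts mostly concerned a single edge, which the overlap rule favours, since it limits how far both edges can move. At least 1 edge had moved by more than 1000 bp in 169 domains (29.5%, against 14.8% of all pairs with an overlap of at least 50%), and both had done so in 14 (2.45%, against 0.695% of those pairs). In 61 of the 169 domains (36.1%) the other edge had stayed within 50 bp. This was so in 46.4% of the 446 pairs of any width with such a shift. In the 61 domains the moving edge had gone outward in 35 and inward in 26. The split by direction was not determined for the pairs of any width. Of the 14 domains with 2 large shifts, 12 had moved in the same direction along the chromosome at both edges and 2 had lost more than 1000 bp on both sides. No domain had gained more than 1000 bp on both sides. By the rule, a stretch covered in 1 strain alone overlaps no peak of the other strain.

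Domains with nearly immobile edges occurred on several chromosomes. The smallest summed shift, 2 bp, was shared by chr1:3655228-3660381 (chr1:3655227-3660380 in the wild type), with a width of 5154 bp in both strains across SMAC4_04237 and SMAC4_04236, by chr2:3933482-3936811, which ended 2 bp later in the wild type and overlapped SMAC4_02595 and SMAC4_02594, and by chr5:2539583-2543573 (chr5:2539584-2543572 in the wild type), which overlapped SMAC4_06203 and SMAC4_13839. The domain chr2:6267306-6274364, the one nearest to the rRNA repeats among these, started on the same base in both strains and ended 5 bp further out in Δasf1, with a width of 7059 bp in Δasf1 against 7054 bp in the wild type. It covered SMAC4_07971 wholly and most of SMAC4_07970 and SMAC4_07972.

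Of the 4 domains that gained most width in Δasf1, 3 extended along a long gene. The greatest gain, 3646 bp, occurred on chromosome 4, where the domain measured 9707 bp in Δasf1 (chr4:2262506-2272212), against 6061 bp in the wild type (chr4:2266173-2272233). Its right edges lay 21 bp apart, its left edge lay 3667 bp further out in Δasf1, and the whole domain lay inside 1 gene of 15370 bp, SMAC4_08888. On chromosome 3 a domain of 6152 bp in Δasf1 (chr3:3705266-3711417), against 3269 bp in the wild type (chr3:3708192-3711460) likewise extended to the left, inside SMAC4_00930, a gene of 6376 bp. A domain on chromosome 2 (chr2:1330292-1337246 and chr2:1330934-1335206) had gained 2682 bp, mostly along SMAC4_04419, a gene of 6685 bp. The next, chr2:783462-791333 in Δasf1 and chr2:783436-788709 in the wild type, had gained 2598 bp and lies in a duplicated part of chromosome 2. Its edge shift was -26 bp on the left and 2624 bp on the right.

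The greatest losses of width were of similar size. Near the right end of chromosome 3 a domain measured 6826 bp in Δasf1 (chr3:5691387-5698212), against 11335 bp in the wild type (chr3:5691311-5702645), with an edge shift of -76 bp on the left and -4433 bp on the right. A domain on chromosome 1 measured 4652 bp in Δasf1 (chr1:4582029-4586680), against 8018 bp in the wild type (chr1:4579489-4587506). A domain on chromosome 2 measured 3492 bp in Δasf1 (chr2:2763499-2766990), against 6599 bp in the wild type (chr2:2762123-2768721) and had lost more than 1000 bp on both sides. The stretch lost on its right lay inside SMAC4_04006, a gene of 6252 bp, so a loss could also run along a long gene. On chromosome 4 a domain measured 5426 bp in Δasf1 (chr4:3459768-3465193), against 8522 bp in the wild type (chr4:3456776-3465297), with an edge shift of -2992 bp on the left, and the stretch lost lay beside SMAC4_08098 and SMAC4_08097, which were both wholly covered in either strain.

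The stretches covered in Δasf1 alone and in the wild type alone differed in gene content. The domains had 519 flanks covered in Δasf1 alone, 217.8 kb in total, and 603 flanks covered in the wild type alone, 281.3 kb in total. Of the bases in these flanks, 72.7% lay inside protein-coding genes when covered in Δasf1 alone and 52.6% when covered in the wild type alone, against 58.0% of the whole genome. For flanks longer than 1000 bp, the shares were 71.3% in the 82 flanks of Δasf1 and 53.2% in the 101 flanks of the wild type. The share was higher in the Δasf1 flanks on each of the 7 chromosomes, where it ranged from 59.4 to 83.7% for Δasf1 and from 46.5 to 64.7% for the wild type. In narrow pairs the same shares were 76.5% for flanks covered in Δasf1 alone and 65.0% for flanks covered in the wild type alone, and in pairs with a peak on either side of the width limit they were 73.0% for Δasf1 and 55.2% for the wild type. Over all 1-to-1 pairs they were 73.6% for Δasf1 and 56.5% for the wild type, so this difference is not particular to the broad domains. Peaks covered more of the genome in the wild type, and the part of this in the result was not tested.

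The shared bases of the domains lay mostly in genes. In all, 2507 kb were covered in both strains, or 6.36% of the genome, and 78.5% of these bases lay inside protein-coding genes, against 58.0% of the genome and 80.2% in narrow pairs. Shifting the domains by 5000 to 50000 bp to either side lowered this share to between 57.0 and 60.7%, so peaks and gene table share their coordinates. The domains overlapped 1074 of the 10309 protein-coding genes (10.4%), with a median length of 2264 bp, against 1927 bp for all protein-coding genes. Longer genes offer more bases to overlap. Most domains covered parts of 1 or 2 genes, with 208 overlapping 1 gene, 227 overlapping 2, 103 overlapping 3, 20 overlapping 4 and 5 overlapping 5. At least 1 whole gene lay inside 217 domains, and 3 whole genes lay inside 9. In 137 domains more than 80% of the shared bases belonged to a single gene. Of the 2135 narrow pairs, 1713 overlapped 1 gene, 64 held a whole gene and 1424 had more than 80% in a single gene. Wider intervals meet more genes, so these counts depend on width and are no separate trait of the domains.

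Gene cover dropped just outside the domains in both strains. In each bin of the outer 1500 bp of the peaks, at least 74.1% of the bases belonged to genes for the Δasf1 edges and at least 70.7% for the wild-type edges. Outside, the share fell to its lowest value, 38.8% for the Δasf1 edges and 42.5% for the wild-type edges, at 850 bp from the edge. At about 3000 bp outside it was 60.7% for Δasf1 and 62.8% for the wild type, close to the genome share. Narrow pairs showed the same course, with the lowest values of 39.9% for Δasf1 and 41.4% for the wild type at the same distance, so the drop is not particular to broad domains. The edges themselves lay inside a gene in 72.2% of cases in Δasf1 and 69.3% in the wild type. Because strand is missing from the annotation table, gene starts and gene ends could not be told apart at the edges.

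**Figure D3:**
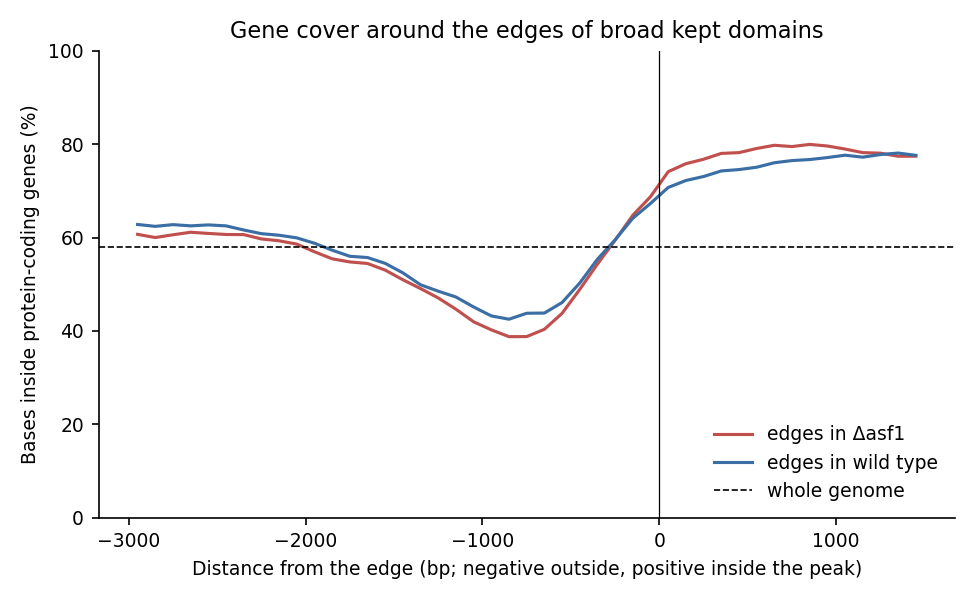
Share of bases inside protein-coding genes in percent (vertical axis) by distance from the edges of the broad domains in bp (horizontal axis, negative outside and positive inside the peak, bins of 100 bp), for Δasf1 edges and wild-type edges. Both curves fall to a minimum at 850 bp outside the edge, 38.8% in Δasf1 and 42.5% in the wild type, below the genome share of 58.0% (dashed line).

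Genes for tRNAs were rare in the domains and frequent beside them. Of 445 annotated tRNA genes, 5 lay in the shared bases of a domain and 6 under either peak, which amounts to 2.00 per Mb, against 11.3 per Mb in the whole genome. Within the 1000 bp outside the domains there were 24 tRNA genes, or 21.0 per Mb. The 5 inside were SMAC4_13026 on chromosome 1, SMAC4_13323 on chromosome 2, SMAC4_13966 on chromosome 6, and SMAC4_14074 and SMAC4_14075, which lay in 1 domain on chromosome 7 (chr7:1407726-1414041 and chr7:1407752-1415513). Any peak of the list, broad or not, overlapped 24 tRNA genes (5.39%) in Δasf1 and 54 (12.1%) in the wild type. The shared bases of narrow pairs, 2690 kb, also held 5 tRNA genes, against 5 in the 2507 kb of the domains. The scarcity is therefore not particular to broad domains. The density beside narrow pairs was not determined. tRNA genes occur in near-identical copies, and how reads that map to several places were treated is not given in the sources used here, so the low count under peaks is uncertain.

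There were 9 domains that overlapped no annotated protein-coding gene (1.57%, against 8.01% of all pairs with an overlap of at least 50%, most of which are narrower and meet a gene less easily). The widest of them, on chromosome 1, measured 6907 bp in Δasf1 (chr1:8284282-8291188), against 7167 bp in the wild type (chr1:8283950-8291116), with a fold enrichment of 1.35 in Δasf1 and 1.23 in the wild type. The other 8 measured between 3014 and 4908 bp in Δasf1 and between 3415 and 5139 bp in the wild type, and 3 of the 9 lay towards the left ends of chromosome 4 (chr4:10616-14727 and chr4:213423-218330 in Δasf1) and chromosome 6 (chr6:22199-25277 in Δasf1). Fold enrichment was lower in Δasf1 than in the wild type in 6 of the 9, against 28.3% of all domains and 40.1% of those pairs.

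Fold enrichment at the broad domains was similar in the strains and slightly higher in Δasf1. It ranged from 1.17 to 1.44 with a median of 1.29 in Δasf1, and from 1.20 to 1.37 with a median of 1.26 in the wild type. The middle 50% of the domains lay between 1.26 and 1.31 in Δasf1 and between 1.24 and 1.28 in the wild type, so that the ranges overlapped. Fold was higher in Δasf1 in 410 domains (71.7%, against 59.9% of all pairs with an overlap of at least 50%) and lower in 162 (28.3%, against 40.1% of those pairs). The median log2 ratio, Δasf1 over wild type, was 0.025 in the broad domains, 0.014 over all such pairs and 0.010 in narrow pairs. The log2 ratio exceeded 0.1 in 49 domains (8.57%, against 8.04% of those pairs) and was below -0.1 in 3 (0.524%, against 2.62%). The fold is relative to the local background within each list, and a ratio of folds says nothing about the absolute amount of acetylation. The median −log10 q was 3.26 in Δasf1 and 2.50 in the wild type.

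The excess of domains with a higher fold in Δasf1 grew with width. When the domains were ordered by the smaller of their 2 widths and divided into 3 groups, fold was higher in Δasf1 in 67.5% of the 191 narrowest (3003 to 3559 bp), 71.6% of the 190 in the middle (3565 to 4613 bp) and 75.9% of the 191 widest (4614 to 11063 bp). The median log2 ratio in these groups was 0.019, 0.023 and 0.030. In order of width, the median fold was 1.28, 1.28 and 1.29 in Δasf1, whereas it was 1.26 in each of the groups in the wild type. Across the 572 domains, Spearman's rho between the folds of both strains was 0.30 and that between the widths 0.71, as a description of regions that share their libraries and were selected for similar width. Between the log2 ratio of width and that of fold, rho was -0.023.

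**Figure D4:**
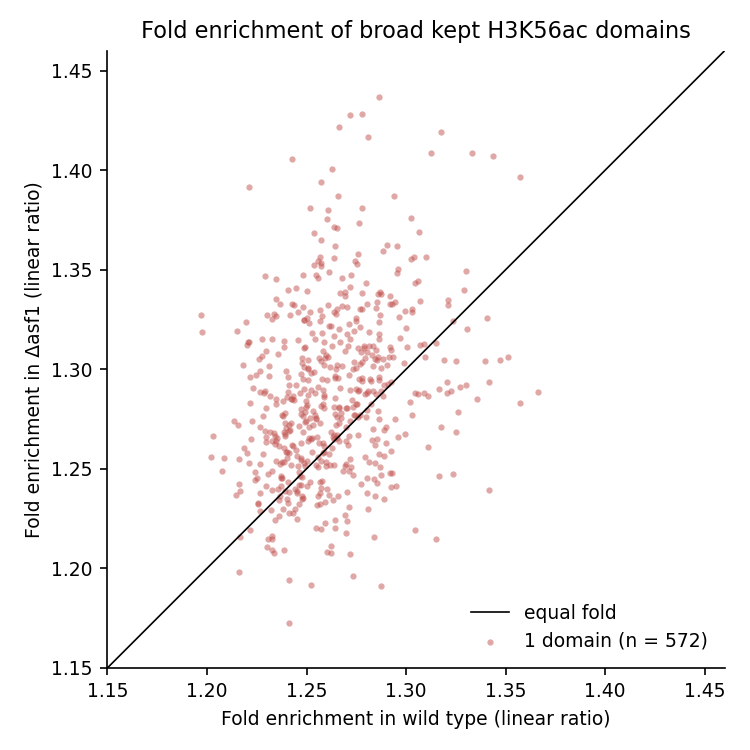
Fold enrichment, a linear ratio to the local background, of each of the 572 domains in Δasf1 (vertical axis) and in the wild type (horizontal axis), with 1 point per domain and the line of equal fold. There are 410 points above the line and 162 below it, and values spread further in Δasf1 (1.17 to 1.44) than in the wild type (1.20 to 1.37).

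The 3 domains with the highest ratio of folds had edges that moved by less than 100 bp. The highest ratio was found on chromosome 3, where chr3:5623037-5627931 in Δasf1 (chr3:5623030-5627844 in the wild type) had a fold of 1.39 in Δasf1 and 1.22 in the wild type, a log2 ratio of 0.19, and lay inside SMAC4_07280. Its edges differed by 7 and 87 bp. The next were chr3:2390741-2394586, with 1.41 in Δasf1 and 1.24 in the wild type at SMAC4_00813, and chr7:3682682-3685834, with 1.43 in Δasf1 and 1.27 in the wild type at SMAC4_07572 and SMAC4_07573. The highest fold of any domain, 1.44 in Δasf1 against 1.29 in the wild type, belonged to chr7:1024819-1028288, which was 3470 bp wide in Δasf1 against 5559 bp in the wild type and lies next to the wide domain of chromosome 7 described above. In the opposite direction, chr6:1815276-1818659 had a fold of 1.24 in Δasf1 and 1.34 in the wild type (SMAC4_06386 and SMAC4_06387), chr3:4469692-4474280 had 1.21 in Δasf1 and 1.31 in the wild type, and chr1:9010104-9013267 had 1.19 in Δasf1 and 1.29 in the wild type. These are the extremes of 572 values without replicates, chosen for their size.

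Broad domains were spread over all 7 chromosomes. There were 152 on chromosome 1, 85 on chromosome 2, 86 on chromosome 3, 75 on chromosome 4, 70 on chromosome 5, 48 on chromosome 6 and 56 on chromosome 7. Their density ranged from 11.2 per Mb on chromosome 6 to 16.3 per Mb on chromosome 1. Among the pairs with an overlap of at least 50%, broad domains made up 14.4% on chromosome 6, the lowest share, and 22.4% on chromosome 1, the highest. Fold was higher in Δasf1 in 28 of the 48 domains on chromosome 6 (58.3%) and in 60 of the 75 on chromosome 4 (80%). These were the lowest and the highest share among the chromosomes, against 71.7% of all domains and 59.9% of all pairs with an overlap of at least 50%. The share among those pairs was not determined by chromosome. The asf1 gene itself is located on chromosome 6, and a link between its place and these values was not tested.

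**Figure D5:**
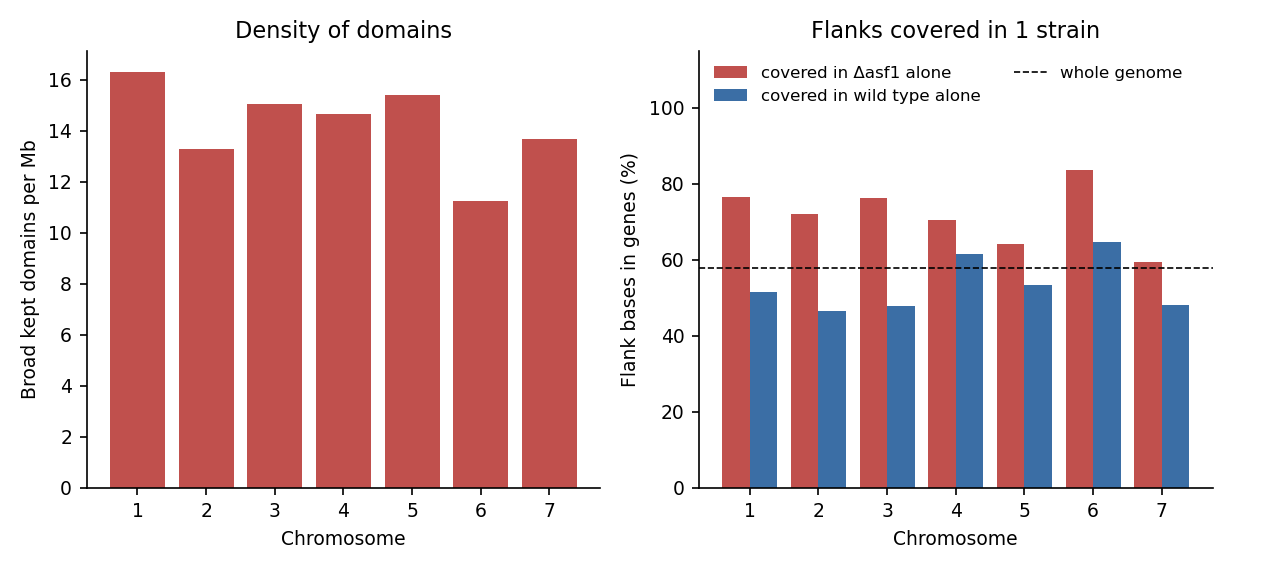
Left, broad kept domains per Mb (vertical axis) on each of the 7 chromosomes, from 11.2 on chromosome 6 to 16.3 on chromosome 1. Right, bases inside protein-coding genes in percent (vertical axis) in the flanks of these domains covered in Δasf1 alone and in the wild type alone, by chromosome, with the genome share of 58.0% as a dashed line. The Δasf1 value is the higher one on every chromosome.

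Most domains stood alone among peaks of other kinds. When neighbouring peaks were followed along the chromosomes, 488 domains had no other broad kept domain as a direct neighbour, 36 runs consisted of 2 and 4 runs consisted of 3. The domains were 572 of 7117 Δasf1 peaks and 572 of 7430 wild-type peaks. With so small a share, most would lack such a neighbour in any order, and their spacing was not tested. The runs of 3 lay on chromosome 1, with a span of 16663 bp from chr1:1081814 and of 14249 bp from chr1:7696794, and on chromosome 7, with a span of 13971 bp from chr7:1862325 and of 14955 bp from chr7:1952595. The densest 200 kb of the genome contained 10 domains and also lay on chromosome 7, from position 1846252, so that it included both of these runs. The gap to a neighbouring peak of the same list had a median of 2613 bp at the Δasf1 domains and 2343 bp at the wild-type domains. Over all neighbouring peaks, the median was 2476 bp in the Δasf1 list and 2238 bp in the wild-type list.

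Long stretches had no broad kept domain at all. The longest were 528.6 kb on chromosome 1 (chr1:188736-717330), 505.9 kb on chromosome 7 (chr7:2899632-3405564), 437.9 kb on chromosome 4 (chr4:2767521-3205398) and 378.3 kb on chromosome 2 (chr2:4459924-4838258). They were not free of acetylation. The stretch on chromosome 7 contained 97 Δasf1 peaks and 93 wild-type peaks, of which 7 in Δasf1 and 14 in the wild type were broad, and 129 protein-coding genes. The stretch on chromosome 1 contained 91 Δasf1 peaks and 111 wild-type peaks, of which 13 in Δasf1 and 18 in the wild type were broad.

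Near the chromosome ends, the share of domains depended on the distance taken, and the outermost pair was a broad kept domain at 7 of the 13 ends examined. Within 50 kb of an end lay 13 domains (2.27%), against 1.29% of all pairs with an overlap of at least 50% and 1.77% of the genome. Within 100 kb lay 19 (3.32%), against 2.71% of those pairs and 3.55% of the genome, and within 200 kb lay 5.42%, against 5.89% of those pairs and 7.10% of the genome. The outermost pair was a member at 7 of the 13 ends examined, the left ends of chromosomes 1, 3, 5, 6 and 7 and the right ends of chromosomes 3 and 5. Over the whole genome, the domains were 572 of all 4362 1-to-1 pairs. The right end of chromosome 2, with the rRNA repeats, was not examined. At right ends, distances were taken to the last gene or peak end and are therefore lower limits. These 7 domains measured 3074 to 6985 bp in Δasf1 and 4538 to 6867 bp in the wild type, and reached to within 1750 bp of the end in Δasf1, against 489 bp in the wild type. Their fold was 1.33 to 1.42 in Δasf1 and 1.27 to 1.34 in the wild type, above the medians of all domains in both strains, and it was higher in Δasf1 in 7 of 7, against 71.7% of all domains and 59.9% of all pairs with an overlap of at least 50%. At the left end of chromosome 1, which had such a domain, fold was 1.42 in Δasf1 (chr1:283-6910) and 1.32 in the wild type (chr1:153-5147). At the other 6 ends, where the outermost pair was not a broad kept domain, fold was higher in Δasf1 in 5. The peaks of these pairs differed in width. The Δasf1 peak was the narrower at both ends of chromosome 4 and the right end of chromosome 1, and the wider at the others. Fold is averaged over the peak, so these pairs cannot show whether the higher fold is particular to the domains.

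In the duplicated parts of chromosome 2, the −log10 q in Δasf1 was higher than in most other domains. The bounds of these parts were taken as those of the outermost of 112 duplicated genes, positions 686748 to 916181 and 1076544 to 1262480, and they held 7 and 4 domains, with 2 more in between. The 11 domains had a −log10 q of 4.23 to 8.20 with a median of 5.76 in Δasf1, and of 1.77 to 4.81 with a median of 2.61 in the wild type. In Δasf1 it exceeded 4 in 11 of 11, against 126 of the other 561 domains (22.5%) and 17.7% of all pairs with an overlap of at least 50%. The fold had a median of 1.27 in Δasf1 and 1.27 in the wild type, and it was higher in Δasf1 in 6 of 11, against 404 of the other 561 domains (72.0%) and 59.9% of all pairs with an overlap of at least 50%. The median log2 ratio of fold was 0.003 in the 11 and 0.026 in the other domains. These parts differ in copy number between the strains, and its part in these q-values, folds and widths was not tested. The domains were wider in Δasf1 in 9 of 11, against 233 of the other 561 domains (41.5%) and 45.7% of those pairs, with a median of 5042 bp in Δasf1 against 4772 bp in the wild type.

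Most genes in these 11 domains have an annotated product, though SMAC4_12609 and SMAC4_05596 have none. The highest −log10 q, 8.20 in Δasf1 against 4.69 in the wild type, belonged to chr2:814086-817226, over SMAC4_05581, a DnaJ chaperone that assists protein folding, and SMAC4_05582, the mitochondrial porin, which forms channels in the outer membrane. Its edges differed by 1 and 41 bp between the strains. The domain with the greatest gain of width among them, at chr2:783462-791333, covered SMAC4_05571, a serine carboxypeptidase, and most of SMAC4_05572, an Fe-S cluster assembly protein. The widest wild-type domain of the group, chr2:764671-773546 in Δasf1 and chr2:764672-773119 in the wild type, covered SMAC4_05565, a transporter of the major facilitator family, most of SMAC4_05566, the replication checkpoint mediator MRC1, which in yeast relays signals from stalled replication forks, and part of SMAC4_05564, a dihydroorotase of pyrimidine synthesis. In the other part, chr2:1139625-1142983 covered SMAC4_04374, the ribosomal protein L20 of the large subunit, and chr2:1214486-1220875 covered SMAC4_04392, a nucleoside diphosphate kinase. At this last domain the left edge lay 1609 bp further out in Δasf1 and the right edge 9 bp further out.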

How the data were processed

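Mycelium of Δasf1 and the wild type was examined by H3K56ac ChIP-seq. Per the labels, 230 U/ml micrococcal nuclease and 10 µl antibody were used. The submitters' processing notes name fastp, Bowtie2 and MACS2, whose versions and settings are not given in the sources used here. The authors deposited 4 peak lists, all labelled as pooled. The domains were drawn from the 2 full lists, and the 2 lists of unique peaks served for a comparison only. No domain occurred in the lists of unique peaks. The deposited columns hold the fold enrichment (a linear ratio), the −log10 p-value and −log10 q-value, and a score. The score was not analysed. The peak names of each list carry a single library code, so it is uncertain whether both replicates contributed.

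Pairs, edges and gene overlaps were computed with Python 3.11.15, pandas 2.3.3 and numpy 2.4.6. Figures were drawn with matplotlib 3.10.9. Pairing was tested on simulated data. Genes came from the RefSeq annotation ASM3387043v1, and products of duplicated genes from the study's supplement. The last gene or peak end stood for the chromosome length. Named domains were the extremes of width, width change, fold ratio and edge shift, those at the limit, and those in duplicated parts. For 14 planned gene lists no products were at hand, so they were not run. Members and lists were chosen with earlier results of these data known. Alternatives changed the width limit, the overlap and the q-value limit. No sequence is printed because no genome was at hand. Peaks are not replicates, and depth per sample is unknown.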

Additional observations from a re-analysis of the deposited data

How the results depend on the processing

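No paired analysis was possible because each strain has a single value per peak. No replicate could be left out either. The values of the report were recomputed under alternative settings, which gave 94 values. Most alternatives keep part of the same domains or add to them, so like values are no independent support. The median width change lay between -60 and -34 bp, the median edge shifts between -14 and -6 bp on the left and between -7 and 0 bp on the right, and the share of bases in genes between 75.7 and 79.7%. A width limit of 4000 bp left 289 domains. With peaks of −log10 q of at least 3 alone, 113 domains were left, 6.19% of them within 100 kb of an end, and the median log2 ratio of fold was 0.014. Centred on all 1-to-1 pairs this ratio was 0.013, and the same ratio of −log10 q was 0.37. Within 200 kb of an end lay 5.42% of the domains, against 7.10% of the genome. The median domain overlapped 1 gene when at least 50% of the gene had to be inside. With an overlap of at least 80% of each peak, 76.6% of the bases of flanks covered in Δasf1 alone lay in genes. The alternatives for these flanks, and those without the duplicated parts or the chromosome ends, were chosen after seeing the data. The planned gene lists could not be run for want of gene products. Edges are limited by the peak caller's settings, and without depth or replicates no shift can be set against its error.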

Other observations

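The following values belong to no comparison above. With the domains divided by the smaller of both widths as before, the share of edges within 50 bp was 31.4% in the narrowest, 33.4% in the middle and 36.9% in the widest group. The share of shared bases inside protein-coding genes was 76.7% in the narrowest group, 79.0% in the middle group and 79.1% in the widest group. At the 6 chromosome ends where the outermost pair was not a broad kept domain, the log2 ratio of fold, Δasf1 over wild type, was 0.30 at the right end of chromosome 4, 0.11 at the right end of chromosome 1, 0.085 at the left end of chromosome 4, 0.033 at the right end of chromosome 7, 0.010 at the right end of chromosome 6 and -0.092 at the left end of chromosome 2. At the ends with the highest ratios, chromosomes 4 and 1, the Δasf1 peaks were 637 and 435 bp wide and the wild-type peaks 6041 and 2346 bp.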
